A study of Mus musculus with 10 samples.

Results

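The genes described here encode the translation initiation factors and elongation factors of the mouse oocyte, with their direct repressors, an eEF2 kinase and the enzymes that methylate elongation factors. They were taken by symbol, as every gene whose name begins with Eif and a number from 1 to 6 or with Eef and 1 or 2. Both eIF5A genes and the 4 eIF2 kinases were left out. Of 18493 genes in the table, 70 symbols matched and 64 stayed as members, of which 60 were among the 12315 genes with enough counts to be tested. The members that were not tested were Eef1a2, Eif2s3y, Eef1aknmt and the readthrough gene Eef1akmt4-ece2. The libraries came from oocytes of mouse ovary and were made by SMART-seq2, which primes polyadenylated RNA with oligo dT and amplifies full-length cDNA. Young oocytes, labelled as controls, gave 3 libraries. Aged oocytes, labelled as the treatment group, gave 3 libraries. Oocytes of a spermidine group, labelled as a rescue, gave 4 libraries. The labels give no strain, genotype, age in weeks, oocyte stage, number of oocytes per library, dose or route, and the spermidine libraries were read as aged oocytes given spermidine, as the series' design describes a rescue of aged oocytes. Spermidine belongs to the polyamines, small metabolites that carry positive charge. The question put by the series is how age and spermidine change the oocyte's transcripts.

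Translation begins when eIF2, carrying the initiator tRNA, joins the small ribosomal subunit together with eIF1, eIF1A, eIF3 and eIF5. The loaded subunit is brought to the capped end of an mRNA by the cap-binding protein eIF4E, the scaffold eIF4G and the RNA helicase eIF4A, and the eIF4E-binding proteins repress this step by keeping eIF4G off eIF4E. In elongation eEF1A delivers aminoacyl-tRNA and eEF2 moves the ribosome along the mRNA. Oocytes store mRNAs that are translated later, during maturation and after fertilisation, when little or no transcription takes place, and control of the cap complex is one of the known ways of keeping such mRNAs silent.

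Library totals lay between 24222185 and 28730790 counts, of which the members made up 0.664% to 0.771%. All 13 oocyte markers looked at, among them Gdf9, Zp3 and Dppa3, were detected in every library, at a summed level of 24159 to 40431 CPM (a gene's count scaled to a common library total). Markers of granulosa and cumulus cells summed to 20.3 to 28.7 CPM and those of theca and stroma to 2.03 to 5.48 CPM. Of the 6 granulosa and cumulus markers tested, 2, Fshr and Nr5a2, were higher in aged than in young libraries by edgeR, and 0 were lower. Over the 6, log2 differences ran from -2.28 to 1.79, with 3 above 0 and 3 below. DESeq2 called 2 of them higher and 1 lower, beside 10.5% and 10.9% of its genes. Of the 13 oocyte markers, Ddx4 and Nlrp5 were higher by edgeR and Figla lower, 3 in all. By edgeR 9.71% of all tested genes were higher and 8.06% lower. Ddx4 was also lower in spermidine than in aged libraries, and Nr5a2 higher in spermidine than in young ones. The part of these differences in the results on the members was not tested. Markers of blood and immune cells summed to 0.697 to 26.9 CPM, and haemoglobin genes reached 19.9 and 13.6 CPM in young libraries 1 and 3 and 9.64 CPM in aged library 1, against at most 0.145 CPM in the others. Libraries differed in how transcript length and GC content went with their levels. For aged library 1 the deviations from the mean of all libraries rose with transcript length, with a correlation across genes of 0.414, against 0.143 in spermidine library 1 and -0.212 to 0.0768 in the rest. With GC content the correlation was highest in aged libraries 3 and 2, at 0.380 and 0.256, and lay between -0.261 in young library 3 and 0.199 in the rest, with -0.164 in aged library 1. Nothing in the labels says that libraries of a group came from separate animals, so the p-values measure the spread between these libraries, which may in part be technical. In such bulk libraries fewer cells of a type and less RNA per cell cannot be told apart, and a level is that of RNA caught by its poly(A) tail.

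Scaffold and repressor genes of the cap complex were among those higher in aged oocytes, and subunit genes of eIF2 and eIF3 among those lower. The gene Eif4e2, whose product also represses at the cap, was lower too. With each library's trends in transcript length and GC content taken out, Eif4g1, Eif2s1, Eif3e and Eif3k were no longer called. No eIF2 or eIF3 gene was then called lower. By the quasi-likelihood test of edgeR, with p-values adjusted by Benjamini-Hochberg over all tested genes, 5 members were higher in aged than in young libraries and 7 were lower, 12 of 60 or 20%, beside 17.8% of all tested genes (9.71% higher and 8.06% lower). The higher ones were Eif4ebp2, Eif4enif1, Eif4g3, Eif4g1 and Eif1. The lower ones were Eif4a3l1, Eef1akmt4, Eef1e1, Eif4e2, Eif3k, Eif2s1 and Eif3e. The share of members called was thus near that of all genes. With library totals in place of TMM scaling, 6 were higher and 2 lower, beside 13.3% of all tested genes, and that scaling moved the median of all tested genes from 0.10 to 0.24 on the log2 scale. With aged library 1 and spermidine library 1 both left out, 8 were higher and 9 lower, beside 20.8%. Leaving out young library 1, young library 3, aged library 2 or aged library 3 alone brought the count to 5, 6, 8 and 6, while the share of all tested genes fell to 6.59%, 8.19%, 10.8% and 11.4%. Leaving out spermidine library 3, which is in neither of these groups, brought it to 8, beside 16% of all genes. In what follows, passing refers to the test of edgeR unless another tool is named.

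The libraries of the spermidine group were set against the aged ones and against the young ones. Against aged libraries 5 members were lower, Eif4a3l1, Eif4a1, Eif1, Eif4g3 and Eif4enif1, which is 8.33% of 60 beside 4.86% of all tested genes, and 2.44% for the lower direction. None was higher by edgeR, where 2.42% of all genes were. At an unadjusted p under 0.05, 6 of 60 members were higher, beside 1473 of 12315 tested genes. DESeq2 called 2 members higher, beside 5.49% of its genes, and 7 lower, beside 6.14%. The count of 5 fell to 1 without aged library 2 or 3 or without spermidine library 2 or 3, and to 2 without young library 1 or 3. The share of all tested genes fell with it, to 0.789% and 1.33%, to 0.906% and 1.36%, and to 2.17% and 2.23%. It was 5, beside 5.31% of all genes, with aged library 1 and spermidine library 1 both left out. Against young libraries Eif4ebp2 was higher and Eif4a3l1 lower, 3.33% of the members beside 5.36% of all tested genes (3.44% higher and 1.92% lower). That count was 1 without young library 2 or 3, beside 3.75% and 2.59% of all genes. It was 3 without aged library 1 or spermidine library 4 and with aged library 1 and spermidine library 1 both left out, beside 6.98%, 5.01% and 6.42%. These comparisons share libraries: the aged ones stand in the first and second, the young ones in the first and the last. The median member differed by 0.03 between aged and young on the log2 scale, beside 0.10 over all tested genes, by -0.07 between spermidine and aged, beside -0.03, and by -0.06 between spermidine and young, beside 0.04.

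**Figure D1:**
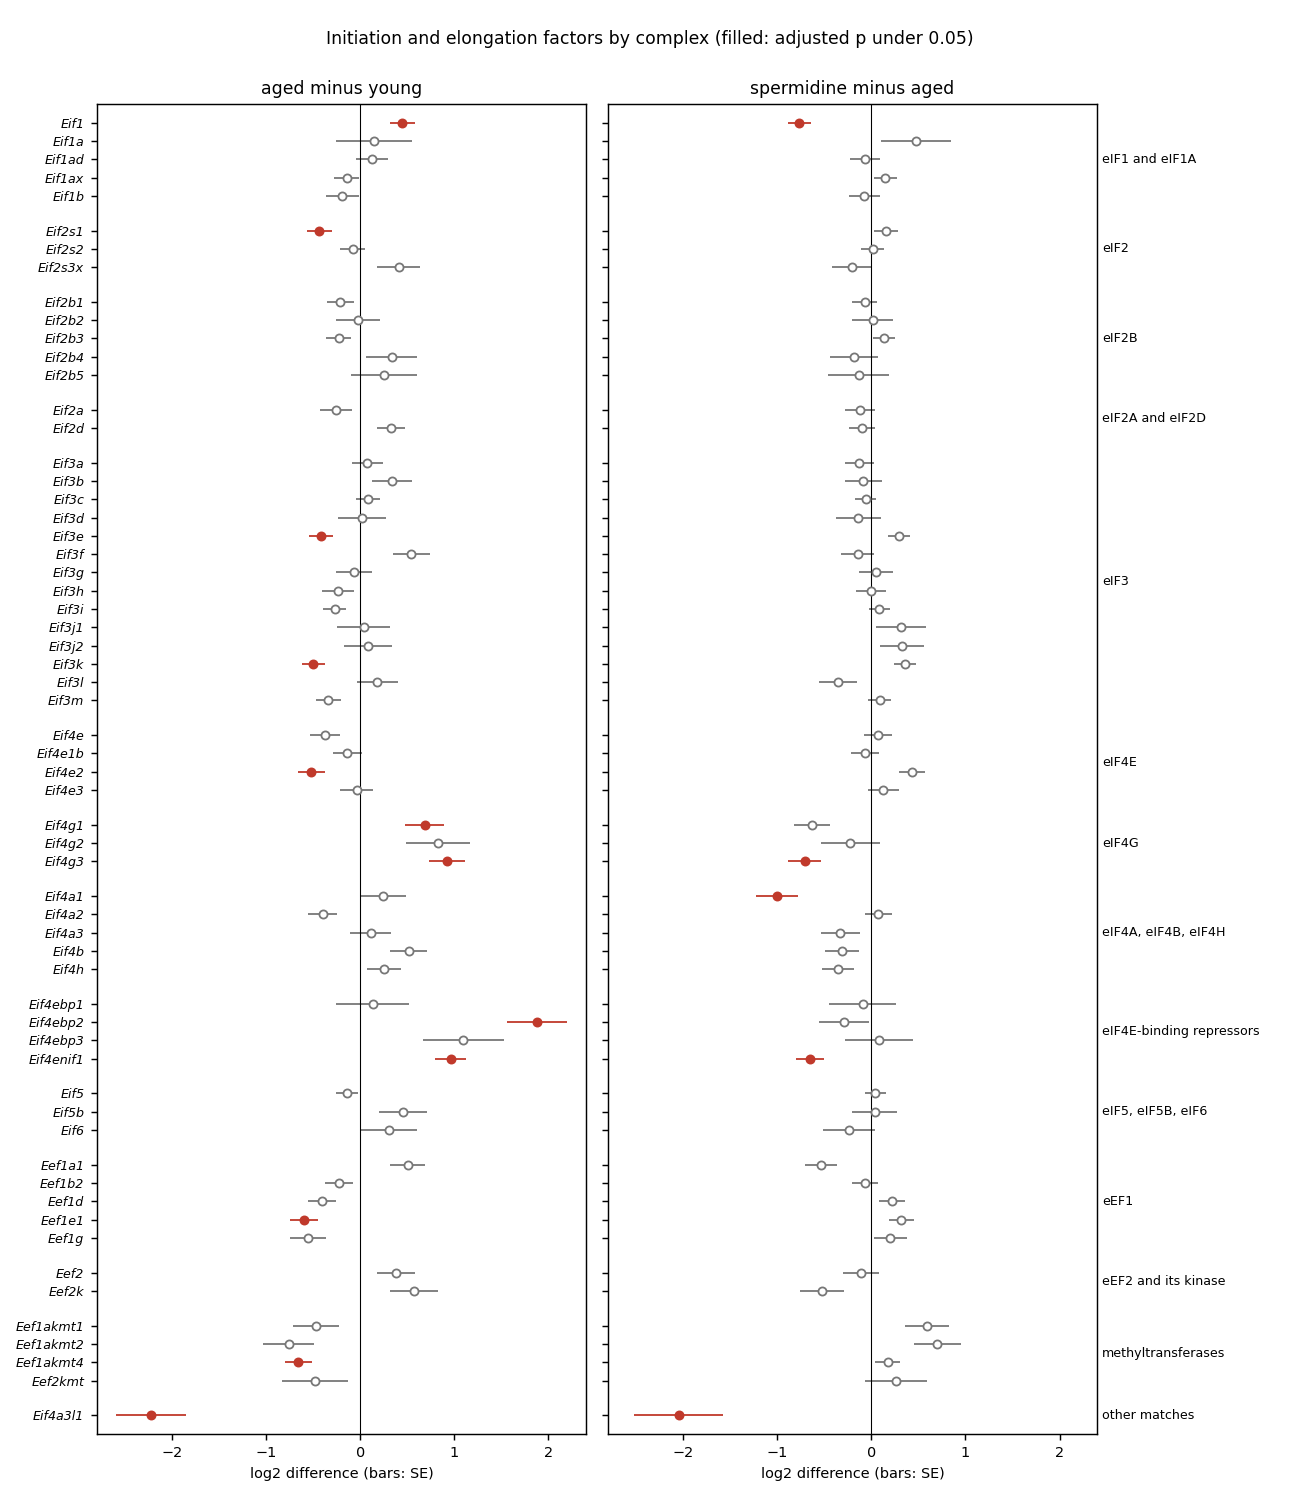
Log2 difference of each of the 60 tested members, aged minus young on the left and spermidine minus aged on the right, in order of factor complex, with bars of 1 SE. Filled red points passed the threshold: 12 on the left, on both sides of 0, and 5 on the right, all below 0.

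Start-proximal DNA of 4 members that were lower with spermidine than in aged oocytes is shown because they are the named members that moved in the same direction in that comparison; Eif4a3l1 is left out as a near copy of another gene. Each run is the 250 bases before the most upstream RefSeq transcription start, read 5′ to 3′ on the gene's strand (RefSeq annotation of GRCm38.p6; 49 of 64 members have an entry). Capitals mark matches, on either strand, to any of 6 motifs searched: the TATA box TATAAA, the CCAAT box CCAAT, the GC box GGGCGG, the cAMP response half-site TGACG, the E-box CACGTG and the ETS site CCGGAAG. The windows lie at chr11:100319699-100319948 on the plus strand for Eif1, chr11:69672424-69672673 on the minus strand for Eif4a1, chr4:137993205-137993454 on the plus strand for Eif4g3 and chr11:3202103-3202352 on the plus strand for Eif4enif1.
Eif1: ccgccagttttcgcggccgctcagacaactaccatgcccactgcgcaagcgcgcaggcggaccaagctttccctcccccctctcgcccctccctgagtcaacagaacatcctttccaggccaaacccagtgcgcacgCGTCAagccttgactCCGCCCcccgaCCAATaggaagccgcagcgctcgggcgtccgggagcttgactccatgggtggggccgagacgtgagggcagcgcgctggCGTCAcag
Eif4a1: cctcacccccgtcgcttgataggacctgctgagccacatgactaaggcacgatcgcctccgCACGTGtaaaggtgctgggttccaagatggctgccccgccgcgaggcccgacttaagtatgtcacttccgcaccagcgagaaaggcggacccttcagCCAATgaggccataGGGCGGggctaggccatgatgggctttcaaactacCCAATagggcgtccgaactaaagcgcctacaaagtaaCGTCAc
Eif4g3: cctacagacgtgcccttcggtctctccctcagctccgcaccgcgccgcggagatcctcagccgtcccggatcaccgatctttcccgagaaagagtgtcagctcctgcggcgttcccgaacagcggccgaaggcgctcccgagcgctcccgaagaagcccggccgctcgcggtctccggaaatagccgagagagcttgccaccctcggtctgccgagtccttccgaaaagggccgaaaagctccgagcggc
Eif4enif1: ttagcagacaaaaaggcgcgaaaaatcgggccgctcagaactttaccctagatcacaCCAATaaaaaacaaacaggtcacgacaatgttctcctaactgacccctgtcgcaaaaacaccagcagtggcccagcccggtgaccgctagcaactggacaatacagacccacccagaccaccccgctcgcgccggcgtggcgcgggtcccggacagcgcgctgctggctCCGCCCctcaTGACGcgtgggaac
The windows of Eif1, Eif4a1 and Eif4enif1 each held a CCAAT box, a GC box and a cAMP response half-site, and that of Eif4a1 also an E-box, while that of Eif4g3 held none of the 6 motifs. None of these windows held the TATA letters. Of 32851 promoters of the same length, 33.8% hold CCAAT, 32.7% the GC box, 17.8% the half-site, 6.02% the E-box, 6.91% the ETS site and 12.4% the TATA box. Among the 49 members with an entry the same letters occurred in 15, 36, 22, 12, 10 and 5. A member was counted when any of its windows held the letters, while the shares above are per promoter. The counts therefore cannot be set directly against those shares. A match describes the letters of a window and is not a binding site.

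The factors that check the start codon are eIF1, which holds the scanning ribosome open, and eIF1A, which stabilises the scanning complex. Eif1 (Gene ID 20918) was the only one of the 5 tested genes of this pair to pass in any comparison. It stood at 98.5, 113 and 104 CPM in the young libraries, 131, 154 and 146 in the aged ones and 81.5, 75.96, 85.7 and 94.3 in the spermidine ones. All aged libraries were above all young ones, and all spermidine libraries were below both groups. The log2 difference was 0.45 (SE 0.13, adjusted p = 0.036) for aged minus young and -0.77 (SE 0.12, adjusted p = 0.0092) for spermidine minus aged. For spermidine minus young it was -0.32 (SE 0.12, adjusted p = 0.17), which did not pass. The difference between spermidine and aged kept its call under all 20 alternative settings, at -0.96 to -0.72, while that between aged and young kept it under 11 of 20. The latter was lost without young library 1 or 3, aged library 2 or 3, or spermidine library 1, 2 or 3. Its close paralogue Eif1b (Gene ID 68969; coding sequence 81.3% identical) held 387, 279 and 351 CPM in young, 242, 346 and 303 in aged and 242, 269.8, 289 and 327 in spermidine libraries, and the 3 groups overlapped. Eif1b's log2 differences were -0.19 (SE 0.17, adjusted p = 0.45) for aged minus young and -0.07 (SE 0.16, adjusted p = 0.81) for spermidine minus aged. Eif1ax and Eif1a, which encode eIF1A, and the eIF1A-domain gene Eif1ad differed by -0.14 to 0.15 between aged and young and did not pass.

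Within eIF2, the carrier of the initiator tRNA, the alpha subunit gene was lower in aged oocytes. Eif2s1 (Gene ID 13665), which encodes the subunit that stress kinases phosphorylate, stood at 155, 130.1 and 153 CPM in young, 101, 114 and 109 in aged and 105, 129, 124 and 124 in spermidine libraries. Young libraries were all above the other libraries, and the aged and spermidine libraries overlapped. On the log2 scale Eif2s1 differed by -0.44 (SE 0.13, adjusted p = 0.041) for aged minus young and 0.16 (SE 0.12, adjusted p = 0.47) for spermidine minus aged. Its call in the first comparison held under 10 of 20 alternative settings and was lost without any 1 of young library 1, young library 3, the 3 aged libraries and spermidine library 3. Eif2s2, the beta subunit gene, differed by -0.08 (SE 0.13, adjusted p = 0.69) between aged and young.

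The gamma subunit of eIF2, which binds GTP and the initiator tRNA, has an X-linked and a Y-linked gene in the mouse. Eif2s3x (Gene ID 26905) held 19.1, 16.6 and 18.99 CPM in young, 34.5, 18.7 and 19.3 in aged and 25.3, 19.2, 19.97 and 19.3 in spermidine libraries. Aged library 1 was the highest, spermidine library 1 the next, and the others lay close together. It did not pass in any comparison, and its aged minus young difference was 0.41 (SE 0.23, adjusted p = 0.22). Eif2s3y (Gene ID 26908; 86.3% identical in coding sequence) had 11 reads in young library 1, 1 read in young library 3 and 0 reads in the other 8 libraries, where a count of 0 allows up to 3 reads. Ddx3y, another Y-linked gene, had 12 reads in young library 1, 4 in aged library 1 and 0 elsewhere, and Kdm5d had 2 reads in young library 1 alone. Uty, also Y-linked, had 22 to 51 reads in every library, with the highest count in spermidine library 4 and the lowest in aged library 3. Young libraries 1 and 3 and aged library 1, where reads of Eif2s3y or Ddx3y were found, are also the libraries with the highest haemoglobin levels; the part of that signal in the other results was not tested.

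None of the eIF2B subunits, which recharge eIF2 with GTP, passed in any comparison. Across Eif2b1, Eif2b2, Eif2b3, Eif2b4 and Eif2b5 the log2 difference between aged and young ran from -0.23 to 0.33. Of these, 0 of 5 reached an unadjusted p under 0.05 and 0 were called by DESeq2. Over all tested genes 4279 of 12315 reached that p, and DESeq2 called 21.4% of its genes. Their levels in the same oocytes ranged from 0.784 CPM per kilobase of transcript for Eif2b5, the catalytic subunit gene, to 261 for Eif2b1. Eif2a and Eif2d, whose products can bring initiator tRNA to the ribosome without eIF2, differed by -0.25 and 0.32 between aged and young and did not pass.

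The eIF3 complex, the large scaffold on the small subunit, was represented by 14 genes, all tested. Eif3e and Eif3k were lower in aged than in young oocytes, beside 8.06% of all tested genes. The other 12 did not pass, with differences from -0.34 for Eif3m to 0.54 for Eif3f. Eif3k (Gene ID 73830), an outer subunit gene, stood at 208, 184 and 178 CPM in young, 141, 127 and 136 in aged and 173, 175, 183 and 158 in spermidine libraries. The aged libraries were below all others, and the spermidine ones overlapped the young ones. Its log2 difference was -0.50 (SE 0.12, adjusted p = 0.018) for aged minus young and 0.36 (SE 0.12, adjusted p = 0.089) for spermidine minus aged. Eif3e (Gene ID 16341) held 163, 139 and 165 CPM in young, 124, 114 and 113 in aged and 143, 156, 142 and 131 in spermidine libraries, in the same order of groups. Its difference was -0.41 (SE 0.13, adjusted p = 0.042) for aged minus young and 0.29 (SE 0.12, adjusted p = 0.16) for spermidine minus aged. Both calls were lost with each library's trends in length and GC content taken out together, and neither trend was taken out alone. The aged minus young difference was then -0.15 (adjusted p = 0.39) for Eif3k and 0.016 (adjusted p = 0.93) for Eif3e. Single libraries also ended these calls. The call for Eif3k was lost without young library 1, aged library 2 or aged library 3, and that for Eif3e also without young library 3, spermidine library 2 or spermidine library 3. No eIF3 gene passed between spermidine and aged by edgeR, with 2 of 14 at an unadjusted p under 0.05 and 1 called by DESeq2. Over all tested genes 2982 of 12315 reached that p, and DESeq2 called 11.6% of its genes. Eif3j1 and Eif3j2 are 99.2% identical in coding sequence, so how reads were split between them is uncertain.

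Of the 4 genes for cap-binding proteins of the eIF4E family, 1 was lower in aged than in young oocytes, beside 8.06% of all tested genes. Log2 differences between aged and young were -0.52 to -0.04 over the 4. Eif4e (Gene ID 13684), the main cap-binding protein gene, held 898, 810.4 and 962 CPM in young, 601, 769 and 688 in aged and 581, 777, 837 and 693 in spermidine libraries. All aged libraries were below the young ones, but the log2 difference of -0.38 (SE 0.16, adjusted p = 0.12) did not pass. Eif4e2 (Gene ID 26987), which encodes 4EHP, a cap-binding protein that does not engage eIF4G and represses its targets, was the member of the family that passed. Its levels were 29.7, 30.6 and 30.5 CPM in young, 17.98, 22.9 and 22.3 in aged and 30.2, 29.7, 28.2 and 25.6 in spermidine libraries. The aged libraries were below all others, and young and spermidine libraries overlapped. The log2 difference was -0.52 (SE 0.14, adjusted p = 0.028) for aged minus young and 0.43 (SE 0.14, adjusted p = 0.082) for spermidine minus aged, the latter short of the threshold. With the correction for length and GC content the spermidine minus aged difference passed, at 0.47 (adjusted p = 0.047). The call between aged and young was lost without young library 1, 2 or 3 or aged library 3.

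Eif4e1b (Gene ID 218268), an oocyte-restricted relative of Eif4e with 57.6% identity in coding sequence, held 12.9, 15.01 and 13.4 CPM in young, 13.98, 12.6 and 11.01 in aged and 13.1, 11.7, 11.4 and 11.6 in spermidine libraries. Eif4e3 (Gene ID 66892), an atypical cap-binding protein gene, held 227, 298 and 223, 185, 280.1 and 266 and 238, 263, 287 and 275 CPM in the same groups. For both genes the 3 groups overlapped, and the aged minus young differences were -0.14 (SE 0.15, adjusted p = 0.54) and -0.04 (SE 0.18, adjusted p = 0.90). Per kilobase of transcript the family ran from Eif4e at 261 CPM through Eif4e3 at 101 and Eif4e1b at 14.9 to Eif4e2 at 10.3, as means over the 10 libraries.

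Of the 3 scaffold genes of the eIF4G group, 2 were higher in aged than in young oocytes, beside 9.71% of all tested genes. Eif4g3 (Gene ID 230861) held 11.1, 14.1 and 11.2 CPM in young, 24.9, 20.8 and 23.4 in aged and 18.5, 12.9, 12.6 and 12.3 in spermidine libraries. The aged libraries were above all others, and the spermidine ones overlapped the young ones, with spermidine library 1 the highest of its group. On the log2 scale Eif4g3 differed by 0.92 (SE 0.19, adjusted p = 0.0087) for aged minus young and -0.71 (SE 0.18, adjusted p = 0.042) for spermidine minus aged. The first was lost only without young library 1 (adjusted p = 0.051) among 20 alternative settings, and the second held under 7 of 20: it was lost on leaving out any single library other than spermidine library 1. Eif4g1 (Gene ID 208643), the canonical scaffold gene with 58.3% coding identity to Eif4g3, held 10.1, 14.1 and 10.4 CPM in young, 22.5, 14.97 and 18.2 in aged and 14.8, 11.9, 10.7 and 10.6 in spermidine libraries. Here too the aged libraries were above all others. The difference was 0.68 (SE 0.21, adjusted p = 0.041) for aged minus young and -0.63 (SE 0.19, adjusted p = 0.075) for spermidine minus aged, the latter short of the threshold. With aged library 1 and spermidine library 1 left out, the aged minus young difference of Eif4g1 was 0.47 (adjusted p = 0.076), and with the correction for length and GC content it was 0.35 (adjusted p = 0.16). It was also lost without young library 1, young library 3, aged library 1, aged library 3, spermidine library 2 or spermidine library 3. Eif4g2 (Gene ID 13690), whose product lacks the eIF4E-binding site, held 55.1, 47.4 and 61.1 CPM in young, 161, 63.1 and 65.3 in aged and 114, 88.3, 57.1 and 70.9 in spermidine libraries. Aged library 1 was far above the other 2 aged libraries, and the difference of 0.82 (SE 0.34, adjusted p = 0.11) did not pass.

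Eif4a1 (Gene ID 13681), the gene of the main eIF4A helicase, was lower with spermidine than in aged oocytes. Its levels were 212, 303 and 191 CPM in young, 299.6, 283 and 256 in aged and 100.2, 112, 151 and 196 in spermidine libraries. All spermidine libraries were below all aged ones, while the aged libraries lay within the range of the young ones. The log2 difference was -1.001 (SE 0.22, adjusted p = 0.031) for spermidine minus aged, 0.25 (SE 0.24, adjusted p = 0.48) for aged minus young and -0.75 (SE 0.22, adjusted p = 0.075) for spermidine minus young. Its call held under 13 of 20 alternative settings. With aged library 1 and spermidine library 1 left out the difference was -0.79 (adjusted p = 0.065), and the call was also lost without young library 1, aged library 2, aged library 3, spermidine library 2 or spermidine library 3. Eif4a2 (Gene ID 13682), a helicase gene with 77.8% coding identity, held 129, 98.95 and 135 CPM in young, 81.4, 101 and 92.7 in aged and 85.9, 92.3, 102 and 104 in spermidine libraries. These groups overlapped, and the spermidine minus aged difference was 0.07 (SE 0.14, adjusted p = 0.80). Neither Eif4a3, which encodes a core protein of the exon junction complex, nor the helicase cofactor genes Eif4b and Eif4h passed, with differences of -0.33, -0.31 and -0.35 between spermidine and aged.

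The largest fold differences among the members were those of Eif4a3l1 (Gene ID 668137), an Eif4a3-like gene whose coding sequence is 96.2% identical to that of Eif4a3. It is reported as uncertain, because the authors' counting could split reads between the 2 genes. It had 24, 59 and 38 reads in the young libraries, 8, 12 and 9 in the aged ones and 3, 1, 3 and 2 in the spermidine ones. The groups did not overlap, with young highest and spermidine lowest. As a share of the reads of both genes it made up 0.548% to 1.18% in young libraries, 0.147% to 0.199% in aged and 0.0266% to 0.0734% in spermidine libraries. The exact 95% binomial interval, which covers counting error only, was 0.351% to 0.814% for the lowest young library and 0.0861% to 0.392% for the highest aged one. For the highest spermidine library it was 0.0151% to 0.214%, which overlaps the aged values. The fitted log2 difference was -2.22 (SE 0.37, adjusted p = 0.0028) for aged minus young, -2.05 (SE 0.47, adjusted p = 0.035) for spermidine minus aged and -4.27 (SE 0.41, adjusted p = 9.8e-05) for spermidine minus young. The middle value rests on 9 reads in the spermidine group and lost its call without young library 3, aged library 2 or 3, or spermidine library 1, 2 or 3.

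Of the 4 genes for repressors that bind eIF4E, 2 were higher in aged than in young oocytes, beside 9.71% of all tested genes. Their log2 differences were 0.13 to 1.88 over the 4. Eif4enif1 (Gene ID 74203) encodes 4E-T, which binds eIF4E in silenced ribonucleoprotein particles, and was the abundant member of this group. It held 157, 144 and 159 CPM in young, 349, 292 and 254 in aged and 218, 165, 162 and 213 in spermidine libraries. The aged libraries were highest, the young ones lowest, and the spermidine ones lay between them without overlap. The log2 difference was 0.96 (SE 0.16, adjusted p = 0.0033) for aged minus young, -0.65 (SE 0.15, adjusted p = 0.036) for spermidine minus aged and 0.31 (SE 0.15, adjusted p = 0.29) for spermidine minus young. The first of these passed under all 20 alternative settings, at 0.78 to 1.11, and the second under 11 of 20. The second was lost without young library 1 or 3, any 1 of the aged libraries, or spermidine library 2 or 3.

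Eif4ebp2 (Gene ID 13688) encodes an eIF4E-binding protein that is released from eIF4E when mTOR phosphorylates it, and its RNA was scarce. It stood at 0.783, 0.467 and 0.578 CPM in young, 3.07, 1.86 and 1.76 in aged and 2.14, 2.07, 1.498 and 1.57 in spermidine libraries, from 13 to 17, 48 to 92 and 37 to 71 reads. Every young library was below every library of the other groups, and aged and spermidine libraries overlapped. Its level was 3.68 times the young level in aged libraries, a log2 difference of 1.88 (SE 0.32, adjusted p = 0.003), and 3.01 times in spermidine libraries, a log2 difference of 1.59 (SE 0.30, adjusted p = 0.0094). Spermidine and aged libraries differed by -0.29 (SE 0.26, adjusted p = 0.52). The aged minus young call held under all 19 alternative settings that could be fitted for it, at 1.53 to 2.06. The spermidine minus young call was lost without young library 2 or 3.

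Eif4ebp1 (Gene ID 13685), of the same family, held 1.198, 1.94 and 1.07 CPM in young, 1.702, 1.44 and 1.504 in aged and 1.02, 2.57, 1.38 and 0.844 in spermidine libraries. Its groups overlapped, and its aged minus young difference was 0.13 (SE 0.39, adjusted p = 0.83). Eif4ebp3 (Gene ID 108112), another relative, held 0.276, 0.251 and 0.4003 CPM in young, 1.03, 0.531 and 0.404 in aged and 0.812, 0.834, 0.567 and 0.575 in spermidine libraries. Young libraries were the lowest, by a narrow margin against aged library 3, and the difference of 1.09 (SE 0.43, adjusted p = 0.095) between aged and young did not pass. Between 6 and 31 reads of Eif4ebp3 were counted in a library, which limits the precision of its difference.

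**Figure D2:**
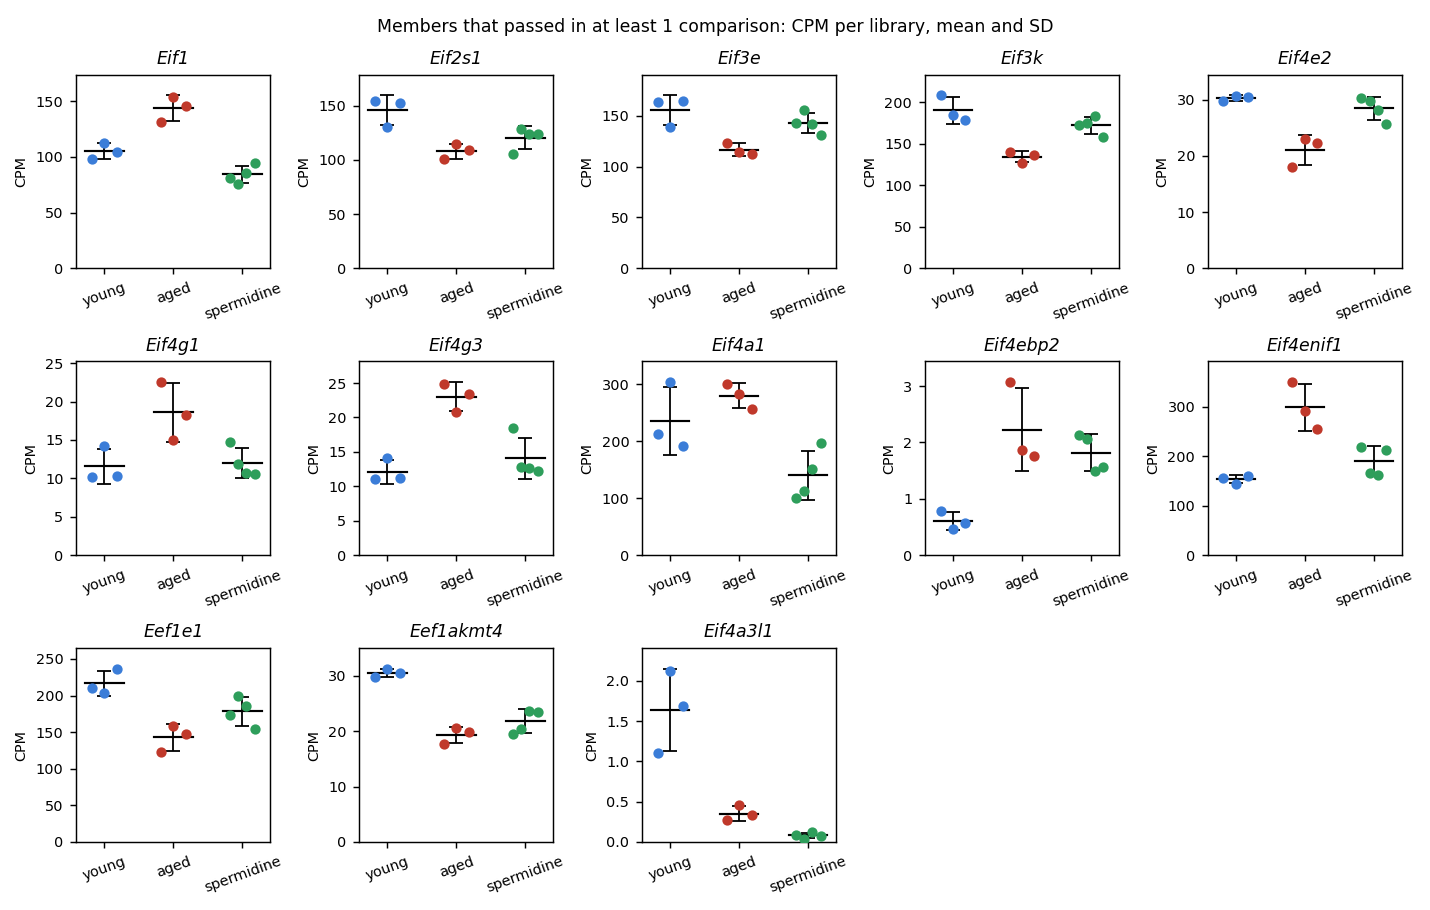
CPM in each library for the 13 members that passed the threshold in at least 1 comparison, by group (young n = 3, aged n = 3, spermidine n = 4), with the group mean and SD; each panel has its own scale from 0. Aged libraries lie above young ones for Eif1, Eif4g1, Eif4g3, Eif4ebp2 and Eif4enif1, and below them for Eif2s1, Eif3e, Eif3k, Eif4e2, Eef1e1, Eef1akmt4 and Eif4a3l1.

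Factors of the last steps of initiation did not pass in any comparison. Eif5, which triggers GTP hydrolysis on eIF2, differed by -0.14 (SE 0.12, adjusted p = 0.41) between aged and young. Eif5b, which joins the large subunit, differed by 0.46 (SE 0.26, adjusted p = 0.22), and Eif6, which keeps free large subunits apart, by 0.30 (SE 0.30, adjusted p = 0.49). None of the 3 reached an unadjusted p under 0.05 in any comparison, and DESeq2 called none. Over all 12315 tested genes 4279 reached that p for aged minus young, 2982 for spermidine minus aged and 2461 for spermidine minus young.

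Among elongation factors, the tRNA-delivering eEF1A is encoded by Eef1a1 in most cells and by Eef1a2 in muscle and neurons. Eef1a1 (Gene ID 13627) was the member with the highest level per kilobase, at 499 CPM. It held 909, 605 and 894 CPM in young, 1132, 1249 and 1030.0 in aged and 633, 734, 853 and 912 in spermidine libraries. The aged libraries were above all others, but neither the aged minus young difference of 0.50 (SE 0.19, adjusted p = 0.078) nor the spermidine minus aged difference of -0.54 (SE 0.17, adjusted p = 0.085) passed. With the correction for length and GC content both passed, at 0.74 (adjusted p = 0.012) and -0.71 (adjusted p = 0.021). Eef1a2 (Gene ID 13628; 80.3% identical in coding sequence) had 1 read in each young library, 0, 1 and 0 in the aged ones and 0, 0, 1 and 1 in the spermidine ones, too few to test.

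The subunits that recharge eEF1A with GTP, encoded by Eef1b2, Eef1d and Eef1g, did not pass by edgeR in any comparison. Their differences between aged and young were -0.23 (SE 0.15, adjusted p = 0.29), -0.41 (SE 0.15, adjusted p = 0.075) and -0.56 (SE 0.19, adjusted p = 0.058). With the correction for length and GC content Eef1d and Eef1g passed between aged and young, at -0.41 (adjusted p = 0.027) and -0.48 (adjusted p = 0.031), and Eef1b2 did not, at -0.02 (adjusted p = 0.93). DESeq2 called 3 of the 5 tested eEF1 genes lower in aged than in young libraries, beside 10.9% of all its genes. By edgeR 1 was called lower, beside 8.06%. Eef1e1 (Gene ID 66143) carries an elongation factor name, but its product, also called AIMP3, is an auxiliary protein of the multi-tRNA synthetase complex. It stood at 209.9, 204 and 236 CPM in young, 123, 159 and 147 in aged and 174, 199.6, 186 and 154 in spermidine libraries. Young libraries were above all others, and aged and spermidine libraries overlapped. The difference was -0.60 (SE 0.15, adjusted p = 0.017) for aged minus young and 0.32 (SE 0.14, adjusted p = 0.18) for spermidine minus aged. Its call in the first comparison was lost without young library 3 and with library totals as scaling, and held under the other 18 settings.

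Translocation factor eEF2 and its kinase did not pass. Eef2 differed by 0.38 (SE 0.20, adjusted p = 0.20) between aged and young and Eef2k, which switches eEF2 off by phosphorylation, by 0.57 (SE 0.25, adjusted p = 0.13). Of the enzymes that methylate these factors, Eef1akmt4 (Gene ID 110599566), a lysine methyltransferase of eEF1A, was lower in aged oocytes. It held 29.9, 31.2 and 30.6 CPM in young, 17.7, 20.5 and 19.8 in aged and 19.6, 20.3, 23.7 and 23.5 in spermidine libraries. The young libraries lay close together and above all others, and aged and spermidine libraries overlapped. On the log2 scale it differed by -0.66 (SE 0.14, adjusted p = 0.01) for aged minus young and 0.17 (SE 0.13, adjusted p = 0.46) for spermidine minus aged. For spermidine minus young it was -0.49 (SE 0.13, adjusted p = 0.052), just outside the threshold. The aged minus young call held under all 20 alternative settings, at -0.71 to -0.42. This gene shares its locus with the readthrough Eef1akmt4-ece2, which had 1 read in all 10 libraries together. Eef1akmt1, Eef1akmt2 and Eef2kmt differed by -0.47, -0.76 and -0.48 between aged and young, and none passed. Eef1aknmt had 0 to 6 reads in a library and was not tested.

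**Figure D3:**
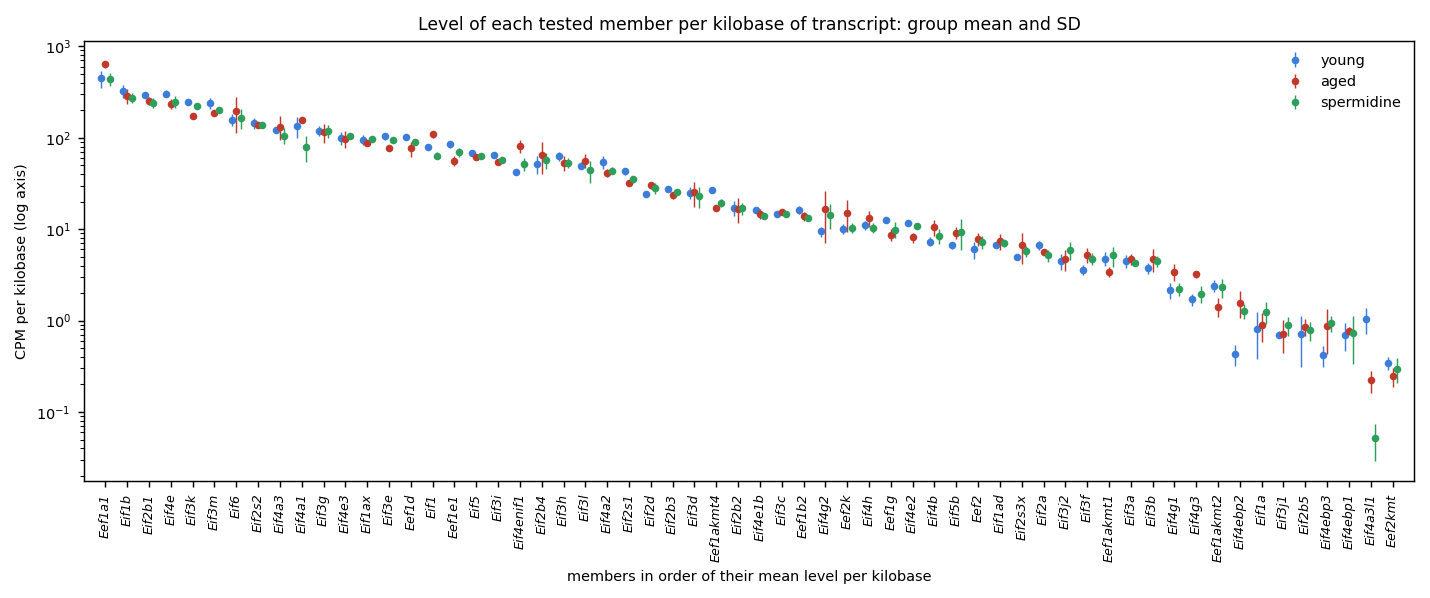
Level of each of the 60 tested members per kilobase of transcript, as group mean and SD in young, aged and spermidine libraries, on a log axis. Members are ordered by their mean over all libraries, from Eef1a1 at 499 CPM per kilobase to Eef2kmt at 0.296.

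The factors of one complex were not present at one RNA level. Per kilobase of transcript, the 14 eIF3 genes ranged from 0.785 CPM for Eif3j1 to 215 for Eif3k, with a median of 36.7. The lower end is uncertain, as reads could be split between Eif3j1 and its near copy Eif3j2. Eif3b was the next lowest, at 4.35. The eIF4G genes lay at 2.56 CPM per kilobase for Eif4g1, 2.27 for Eif4g3 and 13.6 for Eif4g2, well under the 261 of Eif4e and the 119 of Eif4a1. Among repressors, Eif4enif1 stood at 57.99 CPM per kilobase and the 3 eIF4E-binding protein genes at 0.735 to 1.11. In all, 22 tested members averaged at least 100 CPM and 3 averaged under 1 CPM. Order along this list is limited by the gene models used for length, and neighbours such as Eif2b1 at 261 and Eif4e at 261 did not differ beyond their spread.

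Genes that act on these factors were taken from lists of their pathways, whose counts stand beside 9.71% higher and 8.06% lower, or 17.8% in either direction, over all tested genes between aged and young. The alternative settings were followed for the members alone. Apart from counts by DESeq2, the calls in the pathway lists were thus not checked under them, nor under the length and GC correction. Of the 6 eIF2 kinase and phosphatase genes tested, 2 kinase genes were higher in aged than in young oocytes. Eif2ak1, the haem-regulated kinase, differed by 0.64 (SE 0.18, adjusted p = 0.03) and Eif2ak3, the kinase PERK of the endoplasmic reticulum, by 0.87 (SE 0.27, adjusted p = 0.046). Among 13 kinases and regulators upstream of the cap complex, Mtor, Rptor and Tsc2 were higher and Rheb lower. Mtor, the kinase that releases eIF4E-binding proteins, differed by 0.92 (SE 0.27, adjusted p = 0.033) and Rheb, its small GTPase activator, by -0.65 (SE 0.13, adjusted p = 0.0078). Of 14 scanning and cap-binding helpers, Ddx3x, Dhx29 and Larp1 were higher and none lower. Larp1 was scarce, with a mean of 0.499 CPM in young and 1.25 CPM in aged libraries. The helicase genes Ddx3x and Dhx29 differed by 1.04 (SE 0.30, adjusted p = 0.034) and 0.50 (SE 0.15, adjusted p = 0.038).

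Counts in the remaining lists stand beside the same shares of all tested genes, 9.71% higher and 8.06% lower. Poly(A)-binding proteins and their partners had 8 genes tested, with Pabpn1l higher in aged than in young oocytes and Pabpn1 and Paip2 lower. Pabpn1 was scarce, with a mean of 1.09 CPM in young and 0.161 CPM in aged libraries. Pabpn1l, an oocyte-enriched relative of the nuclear protein, stood at 562 ± 285 CPM (SD, n = 3) in young and 1405 ± 539 in aged libraries, and differed by 1.32 (SE 0.36, adjusted p = 0.026). Paip2, an inhibitor of the cytoplasmic poly(A)-binding protein, differed by -0.67 (SE 0.14, adjusted p = 0.01). Of 6 genes for diphthamide, the modified histidine of eEF2, Dnajc24, Dph5 and Dph7 were lower, Dph7 by -1.22 (SE 0.23, adjusted p = 0.0058). Of 11 mitochondrial translation factors, Mtif2, Mtrf1, Mrrf and Mtfmt were lower, Mtif2, the mitochondrial initiation factor, by -1.04 (SE 0.19, adjusted p = 0.0049). Of 20 cytosolic aminoacyl-tRNA synthetase and scaffold genes Aars and Iars were higher. Neither the 4 eIF5A and hypusination genes nor the 6 termination and recycling genes passed between aged and young. By edgeR and DESeq2 alike the count was 0, with 0 at an unadjusted p under 0.05. Over all tested genes 4279 of 12315 reached that p, and DESeq2 called 21.4% of its genes. Between spermidine and aged, Iars, the isoleucyl-tRNA synthetase gene, was lower by edgeR, with a difference of -0.68 (SE 0.14, adjusted p = 0.024), and no other gene of the pathway lists passed by edgeR, beside 4.86% of all tested genes. By DESeq2, which called 11.6% of all its genes, 2 of the 6 eIF2 kinase and phosphatase genes, 1 of the 6 termination genes and 1 of the 13 upstream kinases and regulators were also lower, and 2 of the 8 poly(A)-binding genes were higher.

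Members called higher in aged oocytes had a greater median transcript length than those called lower, with ranges that overlapped, and no test of that difference was run. The 5 higher members had a median transcript length of 3645 bases, from 1322 to 7136.5, and the 7 lower ones 1573 bases, from 774 to 3405, beside 2189 for the 48 that did not pass. Over the 60 tested members the aged minus young log2 difference and log2 length had a Pearson correlation of 0.287, which was 0.036 once each library's trend in length and GC content had been taken out. These values are a description across genes of the same libraries. The correction takes out a length trend fitted over genes, so a fall in this correlation is built into it. With the correction, 6 members were higher and 6 lower, beside 15.3% of all tested genes, 8 of them also called without it. Eif4ebp3 and Eef1a1 were then higher and Eef1d and Eef1g lower, while Eif4g1, Eif2s1, Eif3e and Eif3k were no longer called. Between spermidine and aged, 7 passed with the correction, 1 higher and 6 lower, beside 6.41% of all tested genes, among them the 5 called without it. The higher one was Eif4e2.

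**Figure D4:**
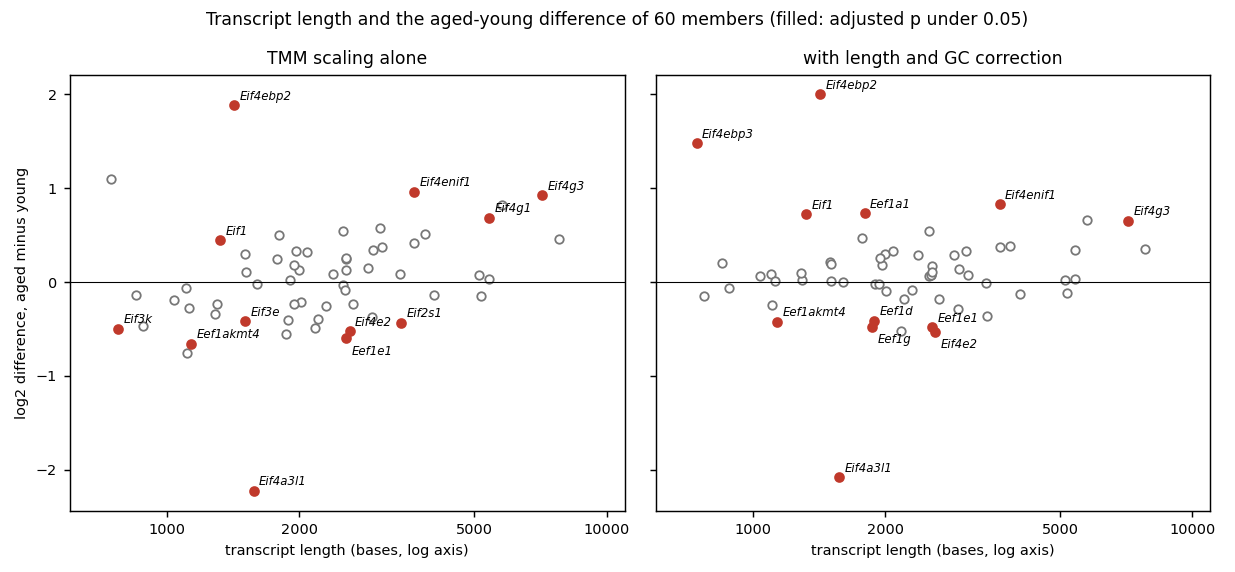
Aged minus young log2 difference against transcript length for the 60 tested members, with TMM scaling alone on the left and with each library's length and GC trend taken out on the right; filled red points passed the threshold. The correlation with log2 length is 0.287 on the left and 0.036 on the right, where the correction itself removes a length trend. Eif3e and Eif3k are filled only on the left.

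In the authors' deposited table, 11 of 63 members with a q-value were under 0.05 for aged over young, 3 higher and 8 lower, beside 11.9% of all its genes (5.91% higher and 5.94% lower). For spermidine over aged 4 of 62 were, all lower, beside 4.09% (1.9% higher and 2.19% lower). Those 4 in the authors' deposited table were Eif1, Eif4a1, Eif4enif1 and Eif4g3, with log2 values of -0.78, -1.01, -0.67 and -0.73. Eif4a3l1, which passed here in that comparison, stood there at -2.20 (q = 0.11). The same deposited table gave Eif4ebp2 a log2 value of 1.85 (q = 0.0011) and Eif4enif1 0.92 (q = 1.6e-05) for aged over young. It also held Eef1g at -0.60 (q = 0.017), which did not pass here, and Eif1 at 0.41 (q = 0.051) and Eif4g1 at 0.65 (q = 0.055), which did. DESeq2 called 17 members between aged and young, 5 higher and 12 lower, beside 21.4% of its genes (10.5% higher and 10.9% lower). Between spermidine and young it called 5, or 1 higher and 4 lower, beside 8.21% (4.21% and 3.99%). Counted only by groups that do not overlap, 11 members were higher and 16 lower in aged than in young libraries, beside 21.1% and 18.8% of all tested genes. Between spermidine and aged 3 were higher and 7 lower, beside 11.4% and 8.49%, and between spermidine and young 5 and 8, beside 12.1% and 8.92%.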

How the data were processed

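Of the 10 oocyte libraries, grouped by title, 3 were young, 3 aged and 4 from the spermidine group. Per the submitters' processing notes the tools were RSEM 1.3.1, Bowtie2 2.3.4.3 and DESeq2 1.4.5, with mm9 as the build and no roles given. The authors deposited an expected count for every gene and library. In a library 15.9% to 16.7% of these were not whole, and all were rounded. Log2 fold changes of the authors stand in the same deposited table with p-values and q-values. Whether counting used strand is not given in the sources used here, which leaves overlapping genes unseparated. Totals of 24222185 to 28730790 counts set the precision of low genes; intervals cover counting error only, as reads carried no stated molecular identifiers.

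Low genes were removed with filterByExpr and libraries scaled by TMM. A single quasi-likelihood fit over all libraries, with robust dispersion, was made in edgeR 4.0.16 (R 4.3.3, limma 3.58.1). Benjamini-Hochberg adjustment ran over the 12315 tested genes, with a threshold of 0.05. SEs are those implied by the F statistic. CPM is relative to the TMM-scaled total of tested genes. Members, complexes, pathway lists and marker lists were chosen with earlier results of these data known. Members named with values are those that passed in at least 1 comparison and fixed sets of paralogues, 25 in all. Other genes named are those of the pathway lists that passed, with values for some of them chosen after they were seen.

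Alternatives changed the scaling (RLE factors or library totals), the filter (none, or 10 CPM in at least 3 libraries), the test (DESeq2 1.42.0, or no robust dispersion), the libraries in the fit (the pair of groups alone, or each library left out) and the model (a replicate block, or offsets for length and GC content). Leaving out aged and spermidine library 1 together was added after seeing the data. The offsets took spline trends with 4 degrees of freedom from each library, using GENCODE transcripts of GRCm38 matched by Gene ID, which covered 97.4% of tested genes. Because mm9 differs from it, coordinates are given only for RefSeq windows of GRCm38.p6. Coding identity is that of the longest reading frames in a global alignment (Biopython 1.88). The procedure was tested on simulated data. Plots were made with matplotlib 3.10.9 in Python 3.11.15.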

Additional observations from a re-analysis of the deposited data

Results flagged for a closer look

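Among the 23 named members that were tested, 2 had 1 spermidine library far from the other 3, where chance alone gives about 1 in 20 groups. For Eif4g3 the gap between spermidine library 1, at 18.5 CPM, and the next was 0.903 of the whole range, the others lying at 12.3 to 12.9 CPM. For Eif2s3x, the X-linked gene of the eIF2 gamma subunit, the gap of the same library, at 25.3 CPM, was 0.877 of the range, the others lying at 19.2 to 19.97 CPM. In spermidine library 1 the deviations of all genes had a correlation of 0.143 with transcript length, against -0.155 to -0.0611 in the other spermidine libraries; its part in these gaps was not tested.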

How the results depend on the processing

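For aged minus young the count of 12 members ran from 8 with library totals or no filter, beside 13.3% and 9.76% of all genes, to 17 with DESeq2, beside 21.4%, and from 5 to 14 on leaving out single libraries, beside 6.59% to 19.3%. It was 13 with RLE factors, 12 with the length and GC correction and 17 with aged and spermidine library 1 both left out, beside 17.9%, 15.3% and 20.8%. For spermidine minus aged the count of 5 was 2 with library totals, 1 with only those groups in the fit and 9 with DESeq2, beside 2.1%, 1.02% and 11.6%, and 1 to 5 on leaving out single libraries, beside 0.789% to 9.17%. For spermidine minus young the count of 2 was 0 with the filter of 10 CPM, by edgeR with 6 members at an unadjusted p under 0.05, and 5 with DESeq2, beside 4.72% and 8.21%, and ran from 1 to 3 on leaving out single libraries, beside 2.25% to 6.98%; that filter leaves Eif4ebp2 and Eif4a3l1 out of the fit. Total count scaling moved the median of all genes between spermidine and young to 0.23 on the log2 scale. Over the single members called, 281 values under an alternative setting kept direction and call, 92 kept direction and lost the call, and 1 changed sign: Eif3e between aged and young, 0.016 with the length and GC correction. Whether replicate numbers in the titles pair the libraries cannot be told from the correlations of their deviations. Between same-numbered young and aged libraries the correlation was 0.167, 0.168 and -0.275. It was 0.408, -0.091 and 0.059 between aged and spermidine ones, and -0.073, -0.194 and -0.035 between young and spermidine ones. The value of 0.408 was the highest between libraries of different groups, but not every library correlated best with its own number. With the replicate block the counts for the 3 comparisons were 11, 4 and 3, beside 18.8%, 8.1% and 5.12% of all tested genes. Depth limits the low members, of which Eif4a3l1 had 1 to 3 reads in a spermidine library and Eif4ebp3 6 to 9 in a young one.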
